A study of Rattus norvegicus with 4 samples.

Results

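The 35 genes described here are those of glycolysis, of the exit of pyruvate and lactate, and of the response to low oxygen, taken by their gene names from 4 tables of gene expression in rat H9C2 cells. All 35 names were found, each on 1 locus, among 33657 rows left after loci that share a gene symbol were summed. The cells were kept for 48 h without PAGln (control 1 and control 2) or with it at 100 µM (PAGln 1 and PAGln 2). All 4 cultures had DMEM with serum under humidified air with CO2, and the labels name no low-oxygen condition. PAGln is phenylacetylglutamine, which the human body makes from glutamine and the bacterial product phenylacetate. H9C2 is an established line from embryonic rat heart, and the labels call the cells cardiac myocytes. Of 10 cardiac myocyte markers, Tnnt2 at a mean of 157 FPKM and Pln at 2.47 FPKM reached a mean of 1 FPKM (reads scaled to gene length and to library depth), while Myh6, Actc1, Actn2, Ryr2 and the others did not. Of 7 skeletal myoblast markers 5 did, with means of 188 FPKM for Itga7, 91.2 for Cdh15, 40.5 for Myod1, 4.76 for Des and 1.33 for Myog. Myf5 and Pax7 were at 0 FPKM. All 5 smooth muscle markers reached a mean of 1 FPKM, from 3843 FPKM for Acta2 and 994 for Tagln down to 2.58 for Myh11. Of 5 fibroblast markers 3 did (Col1a1 at 2977 FPKM, Thy1 at 348 and Pdgfrb at 92.1), while Pdgfra and Dcn did not.

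The libraries held from 13507110 to 14984712 reads, recovered from the FPKM values. Nothing in the labels ties a library to a culture of its own, so each p-value rests on a spread between libraries that could be technical. In RNA from a whole culture, fewer cells of a type and less RNA per cell cannot be told apart. Summed markers of smooth muscle were lower in PAGln 2 (4050 FPKM) than in the other libraries (5196 to 5307 FPKM). Their part in the results below was not tested.

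Glycolysis turns glucose into pyruvate in the cytosol. Hexokinase and phosphofructokinase spend ATP in its upper part, and phosphoglycerate kinase and pyruvate kinase return it in the lower part. Most steps are catalysed by several isoenzymes from separate genes, and muscle, liver, brain and dividing cells differ in the ones they use. When oxygen is scarce, prolyl hydroxylases stop marking the factor HIF-1α for destruction. It then raises the transcription of glucose transporters, glycolytic enzymes, lactate dehydrogenase A and pyruvate dehydrogenase kinase.

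**Figure D1:**
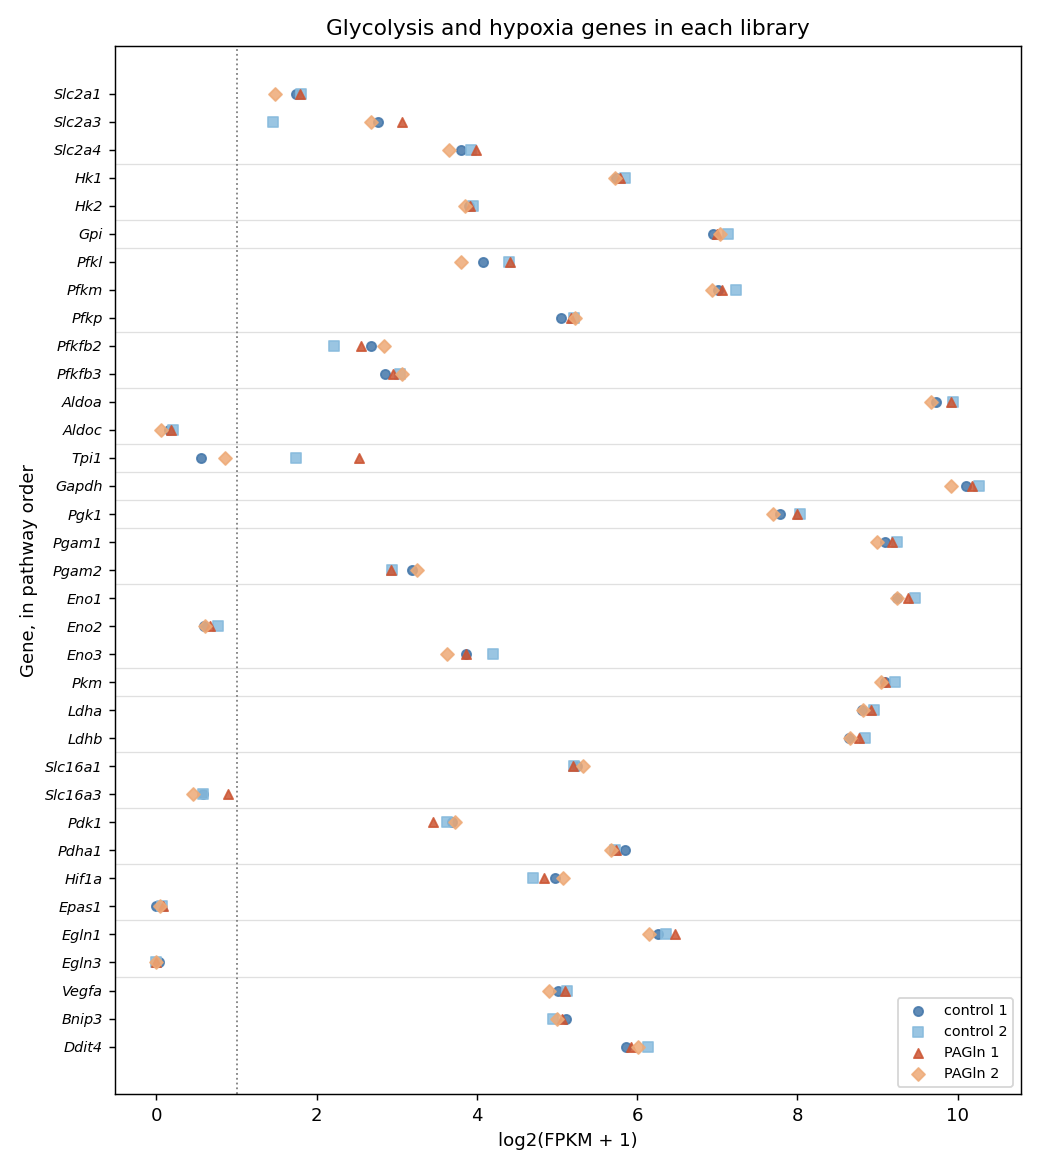
Level of each of the 35 genes in each library, as log2(FPKM + 1), in pathway order from glucose uptake to hypoxia targets, with 1 symbol per library. The dotted line marks 1 FPKM. Aldoa and Gapdh lie farthest to the right in all libraries, and Tpi1 and Slc2a3 have the widest spread.

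Together the 35 genes made up 1.16% and 1.25% of all FPKM in the control libraries and 1.21% and 1.13% in the PAGln libraries. Among the 12314 genes tested, Gapdh ranked 33rd by its mean FPKM, Aldoa 43rd, Eno1 67th, Pgam1 88th, Pkm 90th and Ldha 116th. The transporters, hexokinases and regulators of phosphofructokinase were far less abundant per length.

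Glucose enters muscle through Slc2a4 (GLUT4, the insulin-responsive carrier of muscle and fat), Slc2a1 (GLUT1, the carrier most cells use) and Slc2a3 (GLUT3, a high-affinity carrier known from neurons). Slc2a4 was the most abundant of these in each library, at 12.9 and 14.3 FPKM in control and 14.9 and 11.6 FPKM in PAGln libraries. Slc2a1 had 2.36 and 2.48 FPKM in control and 2.48 and 1.78 FPKM in PAGln libraries, from 63 to 97 reads each. The order was therefore muscle type over ubiquitous type, with no overlap between the genes. Slc2a3 had 5.80 and 1.74 FPKM in control and 7.37 and 5.39 FPKM in PAGln libraries, so control 2 lay below the other libraries and the groups overlapped. Its share of the summed FPKM of the 3 carriers was 27.5% and 9.44% in the control and 29.8% and 28.7% in the PAGln libraries. The log2 fold change of Slc2a3 on the log2(FPKM + 1) scale, PAGln minus control, was 0.76 with an SE of 0.45 (limma, adjusted p = 0.999). It was 0.10 without control 2 and 1.41 without control 1. A further locus on chromosome 4, LOC100909595, is annotated as like Slc2a3 and had 8 to 24 reads per library. Slc2a8, an intracellular glucose carrier, had 14.1 and 15.5 FPKM in control and 13.4 and 12.9 FPKM in PAGln libraries, and with it in the sum Slc2a8 led in control 1, control 2 and PAGln 2 and Slc2a4 in PAGln 1. Slc2a5, a fructose carrier, had 9.26 and 6.83 FPKM in control and 3.89 and 4.14 FPKM in PAGln libraries, without overlap. Its log2 fold change of -0.84 (SE 0.18) did not pass the threshold of 0.05 (limma adjusted p = 0.999). Slc2a10 had 1.44 to 1.82 FPKM.

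Hexokinase traps glucose as glucose 6-phosphate. Hk1, the form of brain and most tissues, had 52.3 and 56.6 FPKM in control and 54.1 and 51.8 FPKM in PAGln libraries. Hk2, the insulin-regulated form of muscle, had 13.9 and 14.5 FPKM in control and 14.0 and 13.4 FPKM in PAGln libraries. Hk1 thus led in each library, by a ratio of 3.76 and 3.91 in the control and of 3.85 and 3.86 in the PAGln libraries. Its share of the step was 79.3% ± 0.478 in control and 79.4% ± 0.00902 in PAGln libraries (SD, n = 2 each). Hk3, the form of blood cells, had 2 reads in control 2 and 0 in the other libraries, and Adpgk, an ADP-dependent glucokinase, had 13.5 to 16.9 FPKM. Gpi, the isomerase of the next step, is the only gene of its step and had 122 and 139 FPKM in control and 127 and 129.5 FPKM in PAGln libraries.

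Phosphofructokinase makes the committed step and is a tetramer of muscle (Pfkm), liver (Pfkl) and platelet (Pfkp) subunits. Pfkm had 127 and 149.5 FPKM in control and 132 and 121 FPKM in PAGln libraries. Pfkp had 32.0 and 36.0 FPKM in control and 35.1 and 36.3 FPKM in PAGln libraries, and Pfkl had 15.9 and 20.0 FPKM in control and 20.3 and 13.0 FPKM in PAGln libraries. The muscle subunit led in all 4 libraries and the liver subunit was the lowest. The share of Pfkm was 72.7% in both control libraries and 70.4% and 71.1% in the PAGln libraries, and that of Pfkp was 18.3% and 17.5% in control and 18.7% and 21.3% in PAGln libraries. The groups did not overlap in either share, with Pfkm -1.91 and Pfkp 2.11 percentage points apart as PAGln minus control means. The levels of Pfkm and Pfkp overlapped between the groups. Shares were given as a description and not tested. Of the 21 shares at the 9 steps, 8 did not overlap between the groups. They were those of Slc2a1 and Slc2a3, Pfkm and Pfkp, Aldoa and Aldoc, and Eno1 and Eno3. The levels of 23.1% of all genes tested did not overlap, but levels and shares are unlike measures. No such percentage was computed for shares, so the count of 8 cannot be called high or low. The 21 include Aldoc, Eno2 and Slc16a3, with means under 1 FPKM. Shares of a step are not independent, and the complementary shares of Aldoa and Aldoc, both among the 8, rest on 1 to 4 reads of Aldoc per library.

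Fructose 2,6-bisphosphate, the strongest activator of phosphofructokinase, is made by the bifunctional enzymes of the Pfkfb genes. Pfkfb3, the form with the highest kinase activity, had 6.22 and 7.25 FPKM in control and 6.76 and 7.37 FPKM in PAGln libraries. Pfkfb2, the heart form, had 5.42 and 3.66 FPKM in control and 4.86 and 6.18 FPKM in PAGln libraries. Pfkfb3 was ahead of Pfkfb2 in all 4 libraries, with a share that ranged from 53.4% to 66.4%. That range was set by control 2, where Pfkfb2 was lowest. Of the other forms, Pfkfb1 had 1.77 to 2.50 FPKM and Pfkfb4, a HIF target, 0.396 to 0.721 FPKM.

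**Figure D2:**
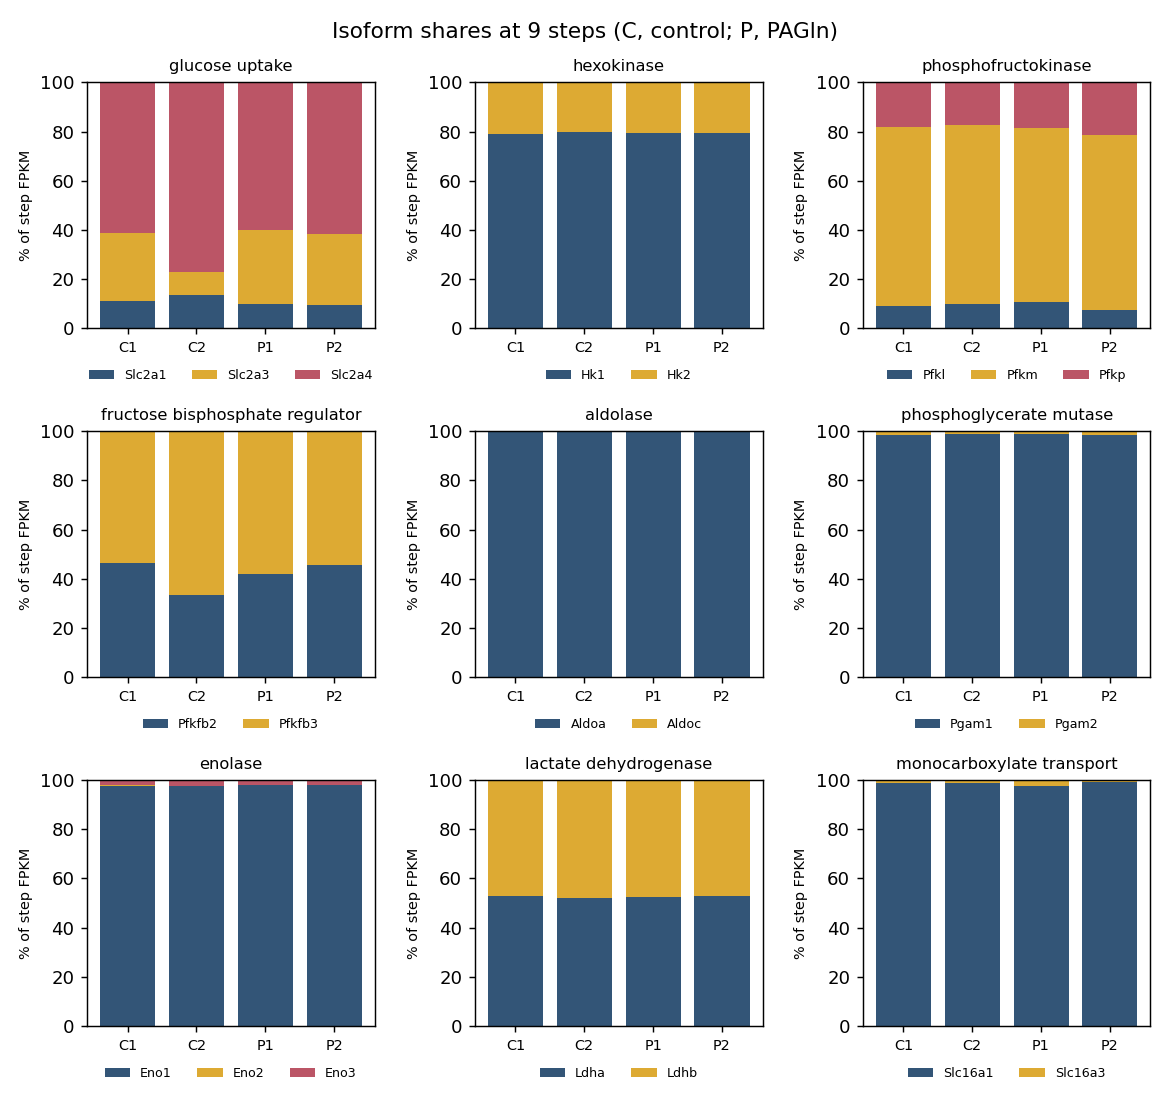
Share of each isoform gene in the summed FPKM of its step, in percent, for the 9 steps with several of the 35 genes, with 1 bar per library (C1 and C2 control, P1 and P2 PAGln). The leading isoform is the same in all 4 bars of each of the 9 steps, and glucose uptake in control 2 differs most from the other libraries.

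Among the isoform genes of aldolase, the mutase and enolase, 1 gene held nearly all of the FPKM of its step. Aldoa, the muscle aldolase, had 847 and 983 FPKM in control and 962 and 814 FPKM in PAGln libraries. Aldoc, the brain form, had 4 reads or fewer in each library. Pgam1, the ubiquitous mutase, made up 98.4% to 98.9% of its step. Pgam2, the form of mature muscle, had 8.09 and 6.70 FPKM in control and 6.61 and 8.49 FPKM in PAGln libraries. Eno1, the ubiquitous enolase, made up 97.5% to 98.1% of its step, and Eno2, the neuronal enolase, had 16 to 24 reads per library. So the forms of mature muscle were minor at the mutase and enolase steps, while the muscle form led at aldolase and phosphofructokinase.

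Eno3, the muscle enolase, had 13.6 and 17.3 FPKM in control and 13.6 and 11.3 FPKM in PAGln libraries. It was the only one of the 30 genes tested whose groups did not overlap, and the gap was narrow, since control 1 and PAGln 1 were nearly equal. The log2 fold change of Eno3 was -0.29 with a 95% interval from -0.71 to 0.14 (limma, adjusted p = 0.999). It ranged from -0.45 to -0.12 when 1 library was left out.

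Gapdh, the dehydrogenase that is often used as a reference gene, had 1098 and 1233 FPKM in control and 1160 and 961 FPKM in PAGln libraries. Pgk1, which makes the first ATP of the lower part, had 219 and 260.1 FPKM in control and 254 and 206 FPKM in PAGln libraries. Pkm, whose single gene gives the M1 and M2 forms of pyruvate kinase by splicing, had 544 and 596 FPKM in control and 544 and 526 FPKM in PAGln libraries. Values per gene do not separate M1 from M2. For each of these genes control 2 was highest and PAGln 2 lowest, and the groups overlapped. The liver and red cell gene Pklr was listed at 0 in all 4 libraries.

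Tpi1, the isomerase that interconverts both products of aldolase, stood apart from its neighbours. It had 0.465 and 2.34 FPKM in control and 4.75 and 0.811 FPKM in PAGln libraries, from 10, 51, 93 and 16 reads. These are levels far below those of aldolase and Gapdh on either side. A second locus, LOC100911515, is annotated as like triosephosphate isomerase, and it had 41.6 and 55.9 FPKM in control and 50.6 and 55.0 FPKM in PAGln libraries, from 1009 to 1374 reads. The files place Tpi1 on the minus strand of chromosome 4 from 157328379 to 157331905 and LOC100911515 on the plus strand of chromosome 9 from 20213588 to 20217176, with a build that is not given in the sources used here. The second locus took 98.9% and 96.0% of the pair's FPKM in control and 91.4% and 98.5% in PAGln libraries. Reads that match both loci may have been left out or each given to 1 of them by the authors' counting, so the level of each alone is uncertain.

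The sum of the pair was 42.0 and 58.2 FPKM in control and 55.4 and 55.8 FPKM in PAGln libraries, with control 1 below the others. The log2 fold change of the sum was 0.17 with an SE of 0.17, against 0.54 with an SE of 0.67 for Tpi1 alone (limma, adjusted p = 0.999 for both). The loci around them are named alike. Atn1, Eno2, Lrrc23 and Spsb2 lie within 60000 bases of Tpi1 on chromosome 4, and loci annotated as like atrophin-1, like gamma-enolase, like Lrrc23 and like Spsb2 lie near LOC100911515 on chromosome 9, in reverse orientation. The gamma-enolase-like locus LOC100911625 had 0.684 and 1.60 FPKM in control and 0.532 and 0.808 FPKM in PAGln libraries, against 0.509 and 0.710, and 0.593 and 0.523 FPKM for Eno2. With the locus added, Eno2 came to 1.49 FPKM on average.

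**Figure D3:**
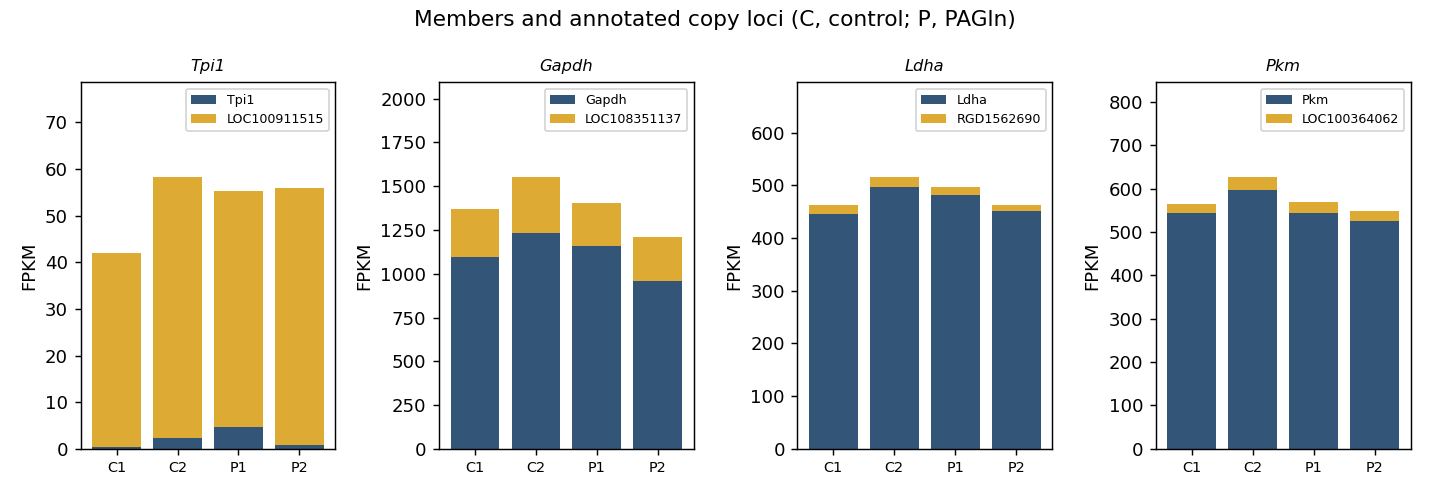
FPKM of 4 genes (blue) and of a locus that the files annotate as the same or a like product (yellow), stacked, with 1 bar per library (C1 and C2 control, P1 and P2 PAGln), each panel on its own axis from 0. The copy holds nearly all of the FPKM for Tpi1 and a small part for Gapdh, Ldha and Pkm.

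Other abundant genes also have annotated copies, with smaller shares. LOC108351137, annotated as Gapdh on chromosome 5, had 271 and 318 FPKM in control and 247 and 247 FPKM in PAGln libraries, or 17.5% to 20.5% of the pair. Its groups did not overlap, and its log2 fold change of -0.25 had an SE of 0.12 (limma, adjusted p = 0.999). A processed pseudogene of Ldha, RGD1562690 on chromosome 8, had 16.5 and 18.8 FPKM in control and 15.4 and 12.4 FPKM in PAGln libraries. A pseudogene like M2 pyruvate kinase, LOC100364062, had 20.2 to 29.4 FPKM, and the pseudogenes RGD1563294 and LOC685431, both like Eno1, had 16.1 to 21.0 and 7.42 to 12.7 FPKM. For Gapdh, Ldha, Pkm and Eno1 the copies thus change the level only in part.

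Lactate dehydrogenase was the step where both isoenzymes were abundant. Ldha, the form that favours lactate production, had 446 and 496 FPKM in control and 482 and 451 FPKM in PAGln libraries. Ldhb, the form typical of heart, had 400.2 and 457 FPKM in control and 435 and 401 FPKM in PAGln libraries. The ratio of Ldha to Ldhb was 1.11 and 1.09 in control and 1.11 and 1.12 in PAGln libraries, so the share of Ldha lay between 52.1% and 52.9%. These ratios do not depend on the scaling of a library. Ldhd, which acts on the D form of lactate, had 3.8 to 5.63 FPKM. The log2 fold change was -0.013 (95% interval -0.32 to 0.29) for Ldha and -0.034 (95% interval -0.35 to 0.28) for Ldhb, and both were above 0 under quantile normalization.

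Lactate and pyruvate leave and enter cells through monocarboxylate carriers. Slc16a1 (MCT1, the widespread carrier) had 37.1 and 36.0 FPKM in control and 35.7 and 39.0 FPKM in PAGln libraries. Slc16a3 (MCT4, the HIF-responsive lactate exporter of glycolytic muscle) had 16 and 16 reads in control and 25 and 11 reads in PAGln libraries. MCT1 therefore held 97.6% to 99.0% of the 2 genes' FPKM. Slc16a7 (MCT2), outside the 35 genes, had 9.47 to 10.4 FPKM.

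Pyruvate enters the mitochondrial route through pyruvate dehydrogenase, which Pdk1 switches off by phosphorylation of its E1α subunit, the product of Pdha1. Pdk1 had 11.9 and 11.3 FPKM in control and 9.95 and 12.2 FPKM in PAGln libraries. Pdha1 had 56.8 and 51.7 FPKM in control and 52.2 and 50.1 FPKM in PAGln libraries. Both genes overlapped between the groups. Of the other kinases, Pdk2 and Pdk3 had means over control libraries of 15.5 and 15.1 FPKM, and Pdk4, the form raised by fasting, had 0.042 to 0.512 FPKM.

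Of the HIF α subunits, Hif1a had 30.3 and 25.1 FPKM in control and 27.6 and 32.7 FPKM in PAGln libraries. Epas1, which encodes HIF-2α of endothelium and other tissues, had 0 and 4 reads in control and 4 and 2 reads in PAGln libraries, and the count of 0 allows up to 0.0411 FPKM. RNA of HIF-1α was thus the main α subunit RNA. HIF-1α is controlled mainly as a protein, which these data do not measure. The log2 fold change of Hif1a, at 0.12 with an SE of 0.15, did not pass (limma, adjusted p = 0.999).

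The oxygen-sensing hydroxylases differed in the same way. Egln1 (PHD2, the main hydroxylase of HIF-1α) had 75.9 and 81.3 FPKM in control and 87.9 and 69.7 FPKM in PAGln libraries, on a gene model of only 669 bases, so its level per length depends on that model. Egln3 (PHD3, itself a HIF target) had 1 read in control 1 and 0 in the other libraries, which allows up to 0.0786 FPKM in PAGln 1. Intervals and limits from reads cover counting error only.

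The HIF targets Vegfa, Bnip3 and Ddit4 were present at middle levels. Vegfa, the endothelial growth factor, had 31.2 and 34.0 FPKM in control and 33.1 and 28.7 FPKM in PAGln libraries. Bnip3, a receptor for the removal of mitochondria, had 33.7 and 29.8 FPKM in control and 32.4 and 31.0 FPKM in PAGln libraries. Ddit4 (REDD1, an inhibitor of mTORC1 that glucocorticoids and stress also raise) had 56.9 and 69.2 FPKM in control and 59.9 and 63.3 FPKM in PAGln libraries. The groups overlapped for each of these genes. The fold change of Bnip3 was the nearest to 0 of the 30, at 0.00085 (95% interval -0.29 to 0.29).

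HIF binds DNA at a core of ACGTG or GCGTG, and the stretches below are shown because they hold these letters before the start of known HIF targets among the 35 genes. They come from RefSeq on the build GRCr8, read 5′ to 3′ on the strand of the gene, with each ACGTG or GCGTG, on either strand, in capitals.
Ldha, chr1:106507980-106508091, plus strand: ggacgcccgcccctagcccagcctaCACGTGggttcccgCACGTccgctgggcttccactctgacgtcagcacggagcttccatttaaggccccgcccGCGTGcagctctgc
Slc2a1, chr5:138002344-138002521, plus strand: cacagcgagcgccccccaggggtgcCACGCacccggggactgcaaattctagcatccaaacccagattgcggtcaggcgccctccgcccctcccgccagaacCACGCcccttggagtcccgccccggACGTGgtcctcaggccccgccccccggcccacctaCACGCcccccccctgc
Pfkfb3, chr17:71944866-71944921, plus strand: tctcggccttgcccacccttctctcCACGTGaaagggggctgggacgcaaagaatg
Bnip3, chr1:203155023-203155095, minus strand: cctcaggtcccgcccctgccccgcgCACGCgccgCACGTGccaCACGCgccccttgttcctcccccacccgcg
Ddit4, chr20:28437074-28437200, minus strand: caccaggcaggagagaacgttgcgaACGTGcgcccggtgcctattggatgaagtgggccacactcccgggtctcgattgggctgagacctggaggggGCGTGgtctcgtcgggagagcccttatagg
In Ldha, Pfkfb3 and Bnip3 the letters CACGTG hold ACGTG on both strands, and CACGTG is also the E-box that MYC and other factors bind.

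RefSeq gave a window for 32 of the 35 genes, 37 windows in all, as some genes have several starts. In the 250 bases before the start, ACGTG was found on either strand in 14 of the 37 windows (37.8%), against 16.6% of all 33469 windows. GCGTG was found in 16 (43.2%, against 25.9%), and either of them in 22 (59.5%, against 36.7%). The windows of these genes also had more G and C, with a median of 63.2% against 51.2%, and its part in the counts was not tested. The windows of Vegfa, Egln3, Slc16a3, Hk2, Pkm, Tpi1, Eno3, Epas1, Gpi, Pfkfb2 and Pgam2 held neither sequence. This says only that the letters are not in those 250 bases.

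The comparison of PAGln with control asks whether the metabolite changed the RNA of these genes within 48 h. None of the 30 genes tested passed, and 5 lay under the filter of a mean of 1 FPKM (Aldoc, Eno2, Slc16a3, Epas1 and Egln3). Of the fold changes 9 were above 0 and 21 below it, with a median log2 fold change of -0.041, against 0.0019 over all genes tested. They ranged from -0.29 for Eno3 to 0.76 for Slc2a3, and Tpi1 was at 0.54. Over all genes 50.6% were above 0. Of all 12314 genes 0 had a limma adjusted p under 0.05 (0%), 258 had an unadjusted p under 0.05 (2.1%), and of the 30 genes 0 did. With limma's voom on recovered reads 0 genes were called and 131 had an unadjusted p under 0.05. The groups did not overlap for 1 of the 30 genes, Eno3, where they did not overlap for 23.1% of all genes tested.

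The direction of the 30 genes together rested on single libraries. Without control 2, 17 of 30 were above 0, with a median of 0.016, and without PAGln 2, 18 of 30 were, with a median of 0.014. Without control 1 the median was -0.10 and without PAGln 1 it was -0.099. For 8 of the 30 genes the sign stayed the same whichever library was left out (Slc2a3, Hk2, Pfkm, Pfkfb2, Gapdh, Eno3, Pkm and Pdha1).

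**Figure D4:**
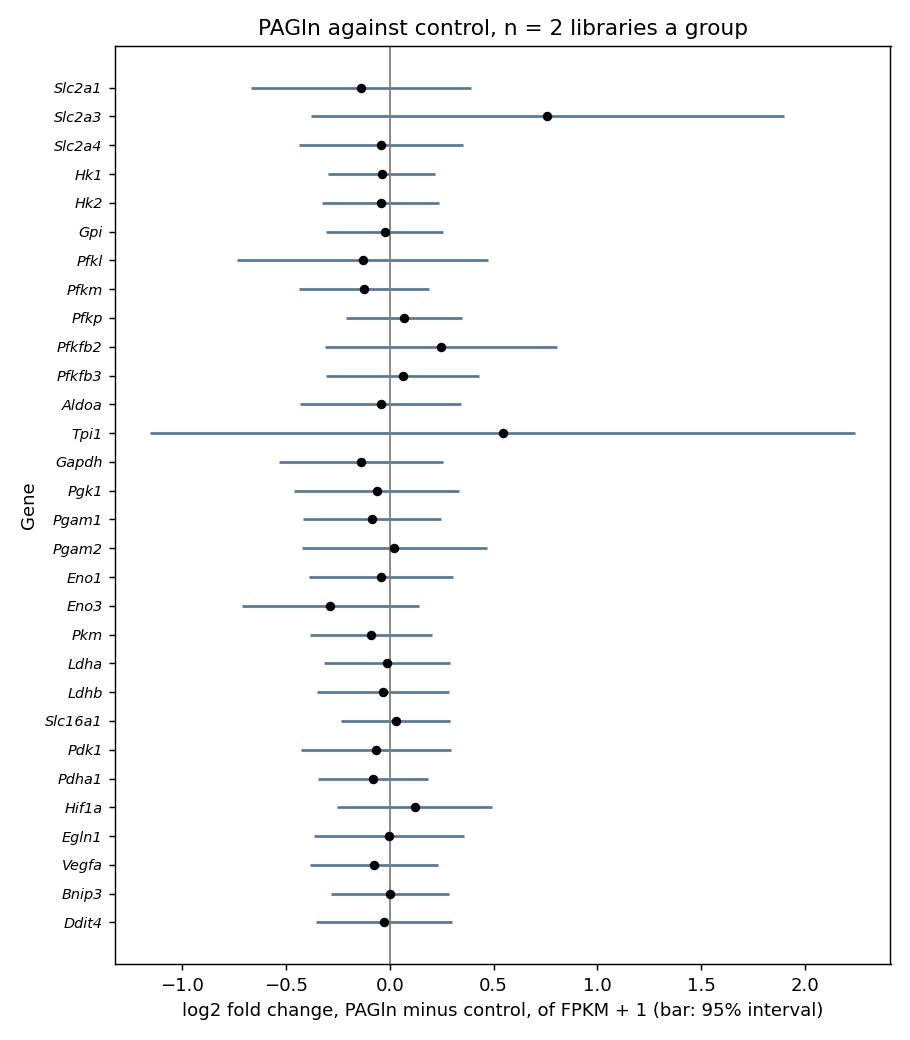
Log2 fold change of FPKM + 1, PAGln minus control, for the 30 genes tested, as points with 95% intervals from limma (n = 2 libraries a group), in pathway order. Every interval includes 0, and the widest are those of Tpi1 and Slc2a3.

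By p-value, Slc2a3, Pfkfb2 and Tpi1 came first among the genes above 0, and Eno3, Pfkm and Gapdh among those below it. Pfkfb2 had a log2 fold change of 0.25 (95% interval -0.31 to 0.81), Pfkm of -0.12 (95% interval -0.44 to 0.19) and Gapdh of -0.14 (95% interval -0.54 to 0.26). With 1 library left out these values came as near to 0 as 0.016 for Pfkfb2, -0.010 for Pfkm and -0.0050 for Gapdh, without a change of sign. The 95% interval lay within a 2-fold change either way for 28 of the 30 genes and within a 1.5-fold change for 24.

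The abundant enzymes varied together from library to library. All 10 glycolytic genes that averaged at least 100 FPKM (Gpi, Pfkm, Aldoa, Gapdh, Pgk1, Pgam1, Eno1, Pkm, Ldha and Ldhb) were highest in control 2. PAGln 2 was lowest for 6 of them and control 1 for 4. The same count was not made over other genes at this level. The highest library exceeded the lowest by 1.11-fold for Ldha and by 1.28-fold for Gapdh, the ends of the range over the 10. All 10 had a fold change below 0, from -0.14 to -0.013, while Ldha and Ldhb turned under quantile normalization and Ldha also after rescaling to TPM, which gives each library the same sum. Of all 30 genes, 16 were highest in control 2 (53.3%, against 30.1% of all genes tested) and 15 were lowest in PAGln 2 (50%, against 29.6%). The median deviation from the mean of the 4 libraries was 0.091 in control 2 and -0.069 in PAGln 2 on the log2 scale for the 30 genes, and at most 0.0038 in any library over all genes. Summed markers of skeletal myoblasts had the same highest and lowest library, with 296 and 359 FPKM in control and 358 and 292 FPKM in PAGln libraries. Those of cardiac myocytes, nearly all from Tnnt2, had 130.1 and 174 FPKM in control and 188 and 148 FPKM in PAGln libraries. All FPKM summed to 469127 and 490976 in control and 483179 and 463891 in PAGln libraries, highest in control 2 and lowest in PAGln 2. The part of the markers and of these sums in the order of the libraries was not tested.

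**Figure D5:**
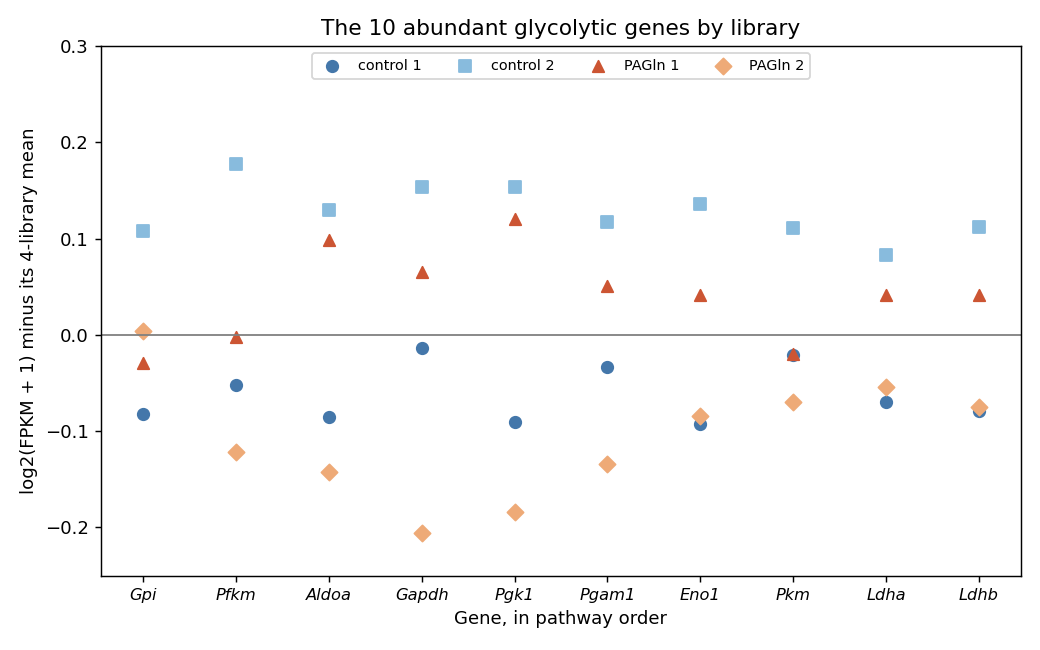
Deviation of log2(FPKM + 1) from the gene's own mean over the 4 libraries, for the 10 glycolytic genes that averaged at least 100 FPKM, with 1 symbol per library. Control 2 lies above 0 and is the highest point for all 10 genes, and each treatment group has points on both sides of 0 for most genes.

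Genes of the neighbouring pathways did not pass either, with 0 called in each list below. Of the pentose phosphate pathway 8 genes were tested, 1 higher and 7 lower, with a median log2 fold change of -0.072. Rpia, the ribose isomerase, had 13.0 and 15.0 FPKM as means of control and PAGln libraries, Tkt, the transketolase, 141 and 131 FPKM, and H6pd, the enzyme of the endoplasmic reticulum, 14.9 and 12.7 FPKM. Of gluconeogenesis 4 of 8 genes in the tables were tested, 1 higher and 3 lower. Pc, pyruvate carboxylase, had 66.6 and 67.1 FPKM in control and 61.4 and 55.8 FPKM in PAGln libraries (log2 fold change -0.19 with an SE of 0.10; limma, adjusted p = 0.999). The gluconeogenic genes Pck1 and Fbp2 were at 0 reads in all 4 libraries, as was the liver glucose carrier Slc2a2.

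Of the 12 glycogen genes tested 8 were higher and 4 lower, with Pgm1 at means of 42.2 and 38.7 FPKM and Ugp2 at 42.1 and 45.7 FPKM in control and PAGln libraries. Of 11 genes of pyruvate import and the dehydrogenase complex 6 were higher and 5 lower. Dlat, its E2 subunit, had means of 24.5 and 26.9 FPKM in control and PAGln libraries, without overlap (log2 fold change 0.13 with an SE of 0.10; limma, adjusted p = 0.999). Medians were 0.017 for the glycogen list and 0.028 for the pyruvate list.

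Of the oxygen-sensing machinery 9 genes were tested, 4 higher and 5 lower, among them Arnt, the partner of HIF-1α, at 15.1 and 15.8 FPKM, and the ubiquitin ligase subunit Vhl at 19.5 and 20.1 FPKM. Egln2 (PHD1) had 24.1 and 34.6 FPKM in control and 28.0 and 20.9 FPKM in PAGln libraries, with overlap. Of 31 other hypoxia response genes tested 14 were higher and 17 lower, with a median of -0.026. Adm, the peptide adrenomedullin, had 23.5 and 24.0 FPKM in control and 26.3 and 28.2 FPKM in PAGln libraries (log2 fold change 0.19 with an SE of 0.10; limma, adjusted p = 0.999). Car9, the carbonic anhydrase known as a marker of hypoxia, had 27.9 and 28.2 FPKM in control and 25.6 and 25.9 FPKM in PAGln libraries, with a log2 fold change of -0.12 (SE 0.099). Levels within the hypoxia list differed widely, since Vldlr, Plod2 and P4ha1 had control means of 139, 139 and 106 FPKM, while Ndrg1 and Angptl4, both HIF targets, had control means of 0.085 and 0.354 FPKM.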

How the data were processed

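RNA-seq of 4 libraries was analysed, 2 control and 2 PAGln, grouped by the treatment label with replicate numbers from the titles. The authors deposited FPKM per gene in 1 table per library. Bowtie 0.12.2 and the human build hg38 are named per the submitters' processing notes, although 32883 of the loci listed have rat Ensembl identifiers and 895 have others. The sources used here do not give the counting tool, the use of strand or the treatment of multi-mapping reads. The labels give 2 repeats in one place and a triplicate in another, and 2 libraries a group were analysed. FPKM times the gene length in the table was a whole multiple of 1 step for 100% of non-zero values (within 0.01), which gave the recovered reads.

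Loci that share a symbol were summed (114 symbols; loci with family names or no name kept apart). Rows with a mean of 1 FPKM or more were tested with limma 3.58.1 in R 4.3.3 on log2(FPKM + 1), with a variance trend, two-sided, adjusted by Benjamini-Hochberg over 12314 genes at 0.05. Fold changes on this scale understate those of low genes. A count of 0 was given a limit of 3 reads. The script was tested on simulated data. Isoform shares are FPKM of a gene over the sum of its step. Copies were found by gene description. The 35 genes and the lists were chosen with earlier results of these data known. All 35 are accounted for, the 3 smallest p in each direction are named, and up to 3 genes with the smallest p stand for each list. Slc2a2, Pck1, Fbp2, Arnt, Vhl, Car9, Vldlr, Plod2, P4ha1, Ndrg1, Angptl4 and the copies were chosen after their values were seen. Alternatives were a pseudocount of 0.1, no filter, quantile normalization, TPM, voom on recovered reads, a replicate block, single loci, each library left out and, added after seeing the data, a crossed block and copies summed with their gene. Some genes of the lists are not reported here by name.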

Additional observations from a re-analysis of the deposited data

How the results depend on the processing

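No gene of the 30 was called under any of the alternatives run, and the smallest adjusted p among them was 0.596, for Slc2a3 without control 1. Over all genes, 7 were called with the replicate block, and 1 to 11 when 1 library was left out, where the lone library is assumed to vary like the other group. Same-numbered libraries deviated from their group means in opposite directions (correlation -0.28 over 12314 genes). With 2 libraries a group, libraries of other number then have 0.28 by construction, so this value cannot decide whether the libraries are paired. A crossed replicate block, added after seeing the data, called 0 genes and 0 of the 30. The number of the 30 above 0 was 6 to 18 without 1 library and 12 with quantile normalization. With the replicate block it was 9, as in the main fit, because a balanced block cannot change the fold changes. The same isoform led in all 4 libraries at 9 of 9 steps, and at 8 with all paralogs in the sum. Outside the libraries left out, the sign turned in 5 of 270 values, but many of the 270 could not turn. The replicate block, the crossed block, no filter and single loci leave the fold changes of these genes unchanged by construction. Copies summed with their gene change only the genes that have copies. Quantile normalization gave 0.037 for Ldha, 0.022 for Ldhb and 0.011 for Egln1, and TPM gave 0.0068 for Ldha and 0.015 for Egln1. With 1 library left out the log2 fold changes whose sign turned ranged from -0.30 to 0.024 for Slc2a1, -0.21 to 0.12 for Slc2a4, -0.10 to 0.016 for Hk1, -0.12 to 0.070 for Gpi, -0.43 to 0.17 for Pfkl, -0.014 to 0.15 for Pfkp, -0.034 to 0.16 for Pfkfb3, -0.16 to 0.076 for Aldoa, -0.29 to 1.38 for Tpi1, -0.22 to 0.088 for Pgk1, -0.18 to 0.0090 for Pgam1, -0.14 to 0.18 for Pgam2, -0.16 to 0.070 for Eno1, -0.089 to 0.064 for Ldha, -0.13 to 0.062 for Ldhb, -0.035 to 0.090 for Slc16a1, -0.20 to 0.072 for Pdk1, -0.013 to 0.25 for Hif1a, -0.17 to 0.16 for Egln1, -0.17 to 0.023 for Vegfa, -0.085 to 0.087 for Bnip3, -0.17 to 0.11 for Ddit4. The cause was not tested. At this depth genes with few reads, such as Tpi1 (10 to 93 per library) and Slc2a1 (63 to 97), are limited by counting error as well.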
